A study of Mus musculus with 8 samples.

Results

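The genes described here encode the enzymes, carriers and receptors of vitamin A metabolism together with aldehyde dehydrogenases and enzymes that detoxify foreign and oxidised compounds. They were taken by gene symbol from the authors' deposited table, as every listed gene whose name begins with one of a fixed set of family stems, such as Aldh, Cyp1 to Cyp4, Rdh, Crabp, Gstm or Ugt1. The rule found 49 genes among the 3624 in the table. The table compares primary astrocyte cultures from retinas and optic nerves of Spp1-/- mice of strain B6.129S6(Cg)-Spp1tm1Blh/J with those of C57BL/6 wild-type mice. Each genotype had 4 samples. Mice of both groups were at postnatal day 1 to 3, and both sets of cells grew in DMEM/F12 with 10% fetal bovine serum. The tissue label names retinas and optic nerves together, so the values do not separate the tissues. Spp1 encodes osteopontin, a secreted phosphoprotein, and the allele is carried by every cell of the knockout mouse, not by astrocytes alone.

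Retinol, or vitamin A, is carried in blood by a binding protein and taken up through a membrane receptor. Short-chain dehydrogenases interconvert retinol and retinaldehyde, aldehyde dehydrogenases of the 1A subfamily oxidise retinaldehyde irreversibly to retinoic acid, and retinoic acid then acts through nuclear receptors of the RAR and RXR families. In the developing mouse eye Aldh1a1 marks dorsal retina, Aldh1a3 marks ventral retina, and Aldh1a2 is made by mesenchyme around the eye and in the meninges. Detoxification runs through oxidation by cytochromes P450 and related enzymes, followed by conjugation to glutathione, glucuronic acid or sulfate.

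For each gene the authors' deposited table gives the normalized count averaged over both groups, the log2 fold change, its standard error and an adjusted p-value, but no value per sample. The spread between replicates and the depth of each sample are therefore unknown, and each value below carries the deposited standard error instead. A positive fold change was taken to mean higher in the knockout, since the targeted gene Spp1 itself had a log2 fold change of -5.90 (standard error 0.11) in the authors' deposited table. Implied means are the mean normalized counts of each genotype worked out from the authors' deposited table, with groups of equal size assumed. The table holds only genes with an adjusted p below 0.05 and a log2 fold change of 0.58 or more in either direction. Every member therefore passed both limits, and a gene that is not listed was not shown to be unchanged. The labels do not say whether samples came from separate cultures, so the p-values reflect only how these samples vary, and that variation may be technical. Y-linked genes were listed 6 times, 5 of them higher in the knockout, and sex is not given in the labels, so sex and genotype cannot be told apart here.

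Of the 49 members 26 were higher and 23 lower in the knockout, that is 53.1% higher. Among all genes of the table, 54.9% were higher and 45.1% lower, so the share over all members was close to that background. Their median log2 fold change was 0.69, against 0.66 over all listed genes, and their median absolute log2 fold change was 1.32, against 1.14. Changes of 1 or more on the log2 scale, in either direction, were listed for 32 members, and for 58.0% of all listed genes. The mouse annotation GENCODE M21 holds 322 protein-coding symbols that match the rule, of which the 49 listed make 15.2%, while 16.1% of all annotated protein-coding genes were listed. The members are described by role, as counts in groups of 3 to 8 genes, and differences between roles were not tested.

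**Figure D1:**
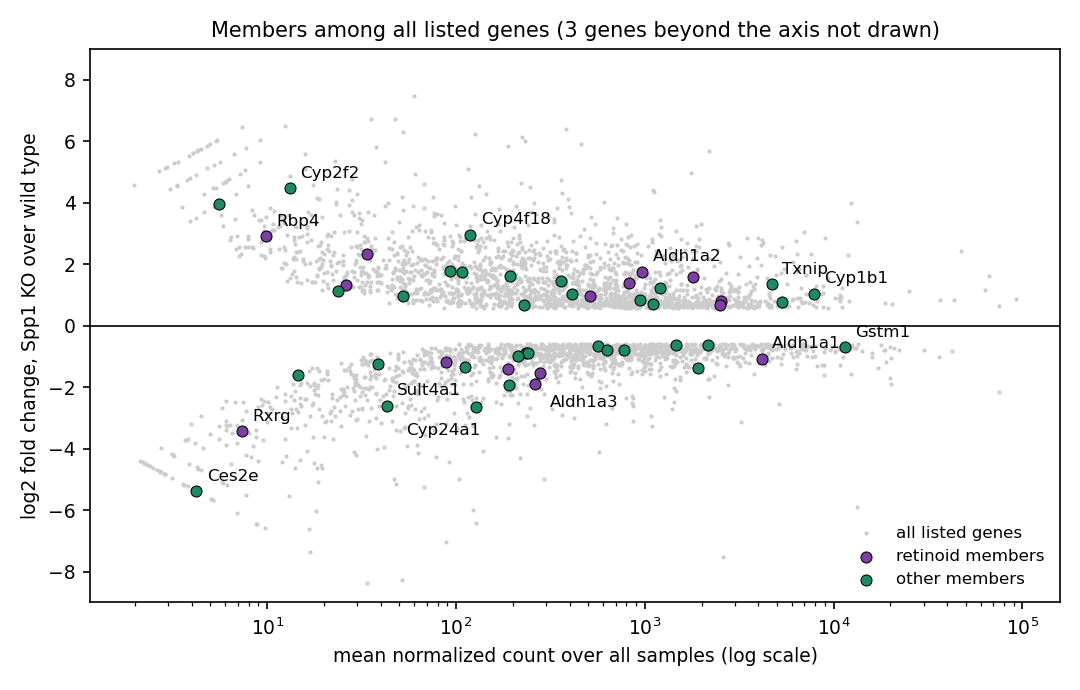
Log2 fold change of knockout over wild type (vertical axis) against the mean normalized count over all samples (horizontal axis, log scale). Grey points are all listed genes, and coloured points are the 15 retinoid and 34 other members, which lie on both sides of 0 across the whole range of counts.

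The retinol transport genes described here were all higher in the knockout, beside 54.9% higher among all listed genes. Only Stra6 among them had an adjusted p of 0.001 or less. Stra6, the membrane receptor through which cells take up retinol from its plasma carrier, had implied means of 1188 normalized counts in knockout and 452 in wild-type cultures, and a log2 fold change of 1.39 (standard error 0.24, adjusted p = 1.4e-07) in the authors' deposited table. That is a 2.63-fold higher level, with a 95% interval from 1.89 to 3.66. Stra6l, a relative of Stra6, had implied means of only 37.4 in knockout and 15.0 in wild-type cultures and rose by 1.32 (0.53, adjusted p = 0.043) in the authors' deposited table. Rbp4, the plasma carrier of retinol, had very low counts. Its log2 fold change of 2.91 (0.83, adjusted p = 0.0025) in the authors' deposited table rests on implied means of 17.4 in knockout and 2.31 in wild-type cultures, and the 95% interval of the fold runs from 2.45 to 23.1.

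The enzymes that interconvert retinol and retinaldehyde also rose, 3 of 3 listed, beside 54.9% higher among all listed genes. Rdh10 oxidises retinol to retinaldehyde, and Dhrs3 reduces retinaldehyde back to retinol. Dhrs3 rose by 1.60 (standard error 0.18, adjusted p = 2.7e-17) in the authors' deposited table, with implied means of 2716 in knockout and 896 in wild-type cultures. Rdh10 rose by 0.69 (0.10, adjusted p = 2.6e-10) in the authors' deposited table, with implied means of 3080 in knockout and 1904 in wild-type cultures. The enzyme of the reducing step thus had the larger fold change, 3.03-fold against 1.62-fold, and their 95% intervals, 2.37 to 3.87 for Dhrs3 and 1.41 to 1.86 for Rdh10, did not overlap, although the difference itself was not tested. Dhrs9, which oxidises retinol and some steroids, rose by 2.32 (0.43, adjusted p = 9.2e-07) in the authors' deposited table, from low counts with implied means of 56.0 in knockout and 11.2 in wild-type cultures. Rdh10 was 1 of 14 annotated Rdh genes and the only one listed, beside 16.1% listed among all annotated protein-coding genes.

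The retinaldehyde dehydrogenases, which make retinoic acid, went in opposite directions. In GRCm38, Aldh1a2 spans bases 71215789 to 71296243 of chromosome 9 and Aldh1a1 bases 20492715 to 20643465 of chromosome 19, both on the plus strand, and Aldh1a3 spans bases 66390890 to 66427517 of chromosome 7 on the minus strand. Aldh1a2 rose by 1.76 (standard error 0.14, adjusted p = 1.2e-35) in the authors' deposited table, with implied means of 1496 in knockout and 440 in wild-type cultures, a 3.40-fold higher level (95% interval 2.82 to 4.09). Aldh1a1 had a log2 fold change of -1.07 (0.11, adjusted p = 3.8e-21) in the authors' deposited table, with implied means of 2678 in knockout and 5635 in wild-type cultures. Aldh1a3 stood at -1.89 (0.34, adjusted p = 3.6e-07) in the authors' deposited table, with implied means of 112 in knockout and 414 in wild-type cultures. Its level in wild type was 3.70-fold that in the knockout (95% interval 2.33 to 5.87). Aldh1a7, a close relative of Aldh1a1, stood at -1.54 (0.18, adjusted p = 1.2e-15) in the authors' deposited table. Aldh1a7 lies 49.5 kb from Aldh1a1 on chromosome 19, on the other strand, and reads that fit both genes may have been counted for either.

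Divided by exon length, the balance of the 3 enzymes differed between the genotypes. On the scale of implied mean normalized counts per kb of exon, Aldh1a1 stood at 1073 in knockout and 2258 in wild-type cultures, Aldh1a2 at 661 in knockout and 194 in wild type, and Aldh1a3 at 25.3 in knockout and 93.4 in wild type. Aldh1a2 made up 37.6% of the sum of the 3 genes in knockout and 7.64% in wild-type cultures, and Aldh1a1 made up 61.0% in knockout and 88.7% in wild type. Aldh1a1 was thus 1.62 times as high as Aldh1a2 in knockout cultures and 11.6 times as high in wild type. The sum of the 3 genes in the knockout was 69.1% of that in wild type. No error can be attached to these shares, since the authors' deposited table does not give how the errors of different genes are related.

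**Figure D2:**
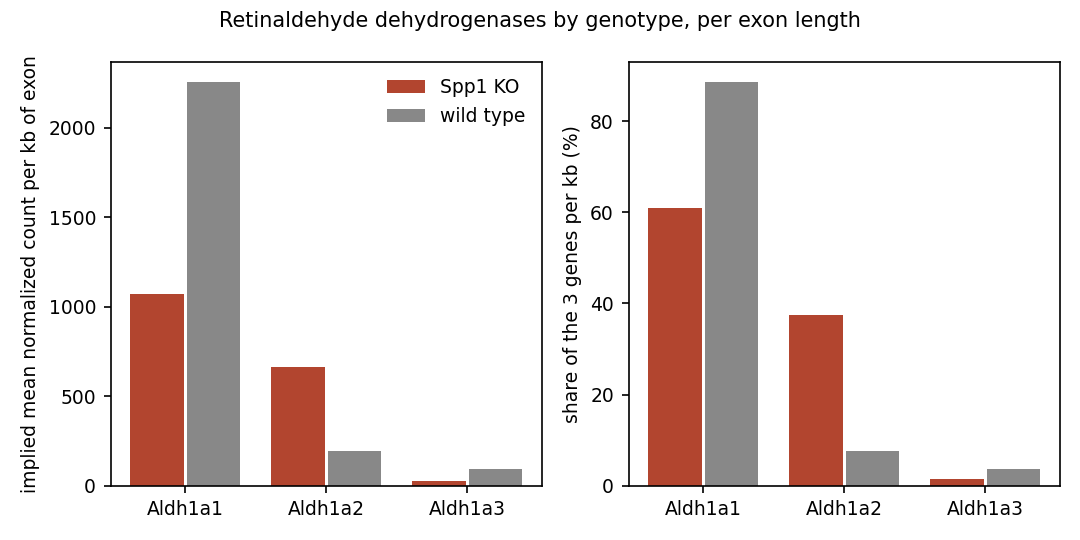
Left, implied mean normalized count per kb of exon of Aldh1a1, Aldh1a2 and Aldh1a3 in Spp1 knockout (red) and wild-type (grey) cultures. Right, the share of each gene in the sum of the 3, in percent, where Aldh1a2 makes up 37.6% in knockout and 7.64% in wild type. Bars are single values worked out from the mean and the fold change and carry no error.

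Among the genes that bind retinoic acid, 1 of 4 listed rose, beside 54.9% higher among all listed genes. Rarb, a nuclear receptor for retinoic acid that is itself induced by retinoic acid, rose by 0.98 (standard error 0.19, adjusted p = 3.8e-06) in the authors' deposited table, with implied means of 679 in knockout and 344 in wild-type cultures. Both cytosolic binding proteins fell. Crabp1, which holds retinoic acid in the cytosol, had a log2 fold change of -1.40 (0.28, adjusted p = 7.6e-06) in the authors' deposited table, with implied means of 104 in knockout and 273 in wild-type cultures. Crabp2, which delivers retinoic acid to its receptors, had a log2 fold change of -1.18 (0.35, adjusted p = 0.0043) in the authors' deposited table, with implied means of 54.0 in knockout and 122 in wild-type cultures. Rxrg, a partner receptor, stood at -3.43 with a standard error of 1.15 (adjusted p = 0.012) in the authors' deposited table, on implied means of 1.25 in knockout and 13.5 in wild-type cultures. Rara, Rarg, Rxra and Rxrb were not listed. The Cyp26 enzymes, which degrade retinoic acid, have 3 annotated genes and 0 listed ones, beside 16.1% listed among all annotated protein-coding genes. So few genes do not set the family apart from that share.

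**Figure D3:**
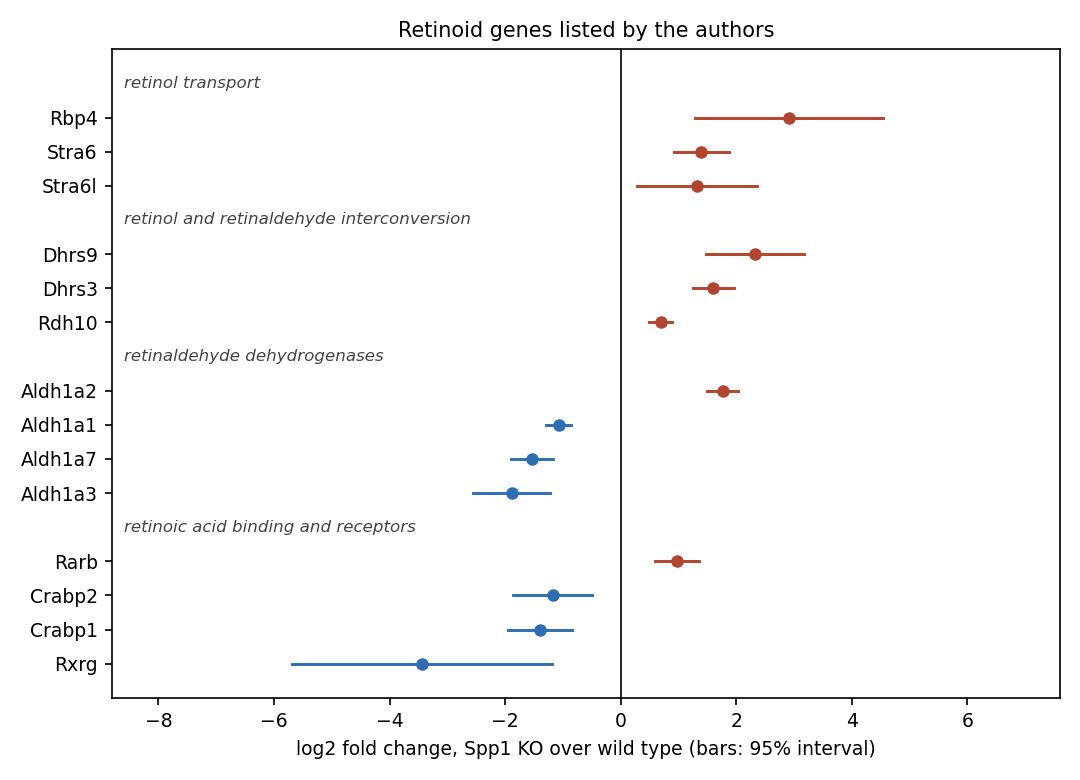
Log2 fold change of knockout over wild type (horizontal axis) for 14 retinoid members, grouped by role, with points for the deposited value and bars for its 95% interval. Red marks genes higher and blue genes lower in the knockout. The 6 genes of retinol transport and interconversion drawn all lie to the right of 0. Of the dehydrogenases only Aldh1a2 lies to the right, and of the genes that bind retinoic acid only Rarb.

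Promoter sequence was available from RefSeq, on build GRCm38.p6, for 37 of the 49 members, in 56 windows that each run from 250 bases before to 50 bases after a transcription start. Each window was searched on both strands for a pair of nuclear receptor half-sites (spelled AGGTCA or GGGTCA or AGTTCA or GGTTCA) in the same orientation with 1, 2 or 5 bases between them. The pair was found in 1 of 56 member windows, that of Rarb, which is 1.79%, and in 0.588% of all 32851 windows in the table. A single window is too few to compare these shares. The search for this pair was not planned with the 3 single motifs, so the match at Rarb is a description and no test. A single half-site AGGTCA, which can be part of such a pair, was found in 10.7% of member windows and 16.3% of all windows. The antioxidant response core TGACNNNGC was found in 12.5% of member windows and 12.4% of all windows, and the xenobiotic response core GCGTG in 26.8% of member windows and 32.4% of all windows. The members as a set thus held none of the 3 single motifs at a visibly higher share than promoters in general. The windows shown are the Rarb start at chr14:16575427-16575726 (minus strand) with its half-site pair in capitals, the start of Dhrs9 at chr2:69380212-69380511 (plus strand) with its half-site, read on the opposite strand, in capitals, and, with the antioxidant core in capitals, Aldh1a2 at chr9:71215539-71215838 (plus strand) and Gstm7 at chr3:107931565-107931864 (minus strand). Rarb, Dhrs9 and Aldh1a2 rose and Gstm7 fell. A match is a string of letters and does not show that a factor binds there.
Rarb: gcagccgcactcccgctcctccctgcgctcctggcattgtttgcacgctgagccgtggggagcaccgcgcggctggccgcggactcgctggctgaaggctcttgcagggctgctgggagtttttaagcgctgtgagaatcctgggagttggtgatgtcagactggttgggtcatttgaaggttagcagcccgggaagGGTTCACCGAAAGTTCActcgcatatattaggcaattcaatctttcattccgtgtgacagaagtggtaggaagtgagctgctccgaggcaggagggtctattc
Dhrs9: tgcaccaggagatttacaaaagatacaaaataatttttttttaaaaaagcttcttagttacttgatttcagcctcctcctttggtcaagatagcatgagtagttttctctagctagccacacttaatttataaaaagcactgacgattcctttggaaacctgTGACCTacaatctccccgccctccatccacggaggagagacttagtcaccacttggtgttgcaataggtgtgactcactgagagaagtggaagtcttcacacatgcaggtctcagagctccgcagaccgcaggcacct
Aldh1a2: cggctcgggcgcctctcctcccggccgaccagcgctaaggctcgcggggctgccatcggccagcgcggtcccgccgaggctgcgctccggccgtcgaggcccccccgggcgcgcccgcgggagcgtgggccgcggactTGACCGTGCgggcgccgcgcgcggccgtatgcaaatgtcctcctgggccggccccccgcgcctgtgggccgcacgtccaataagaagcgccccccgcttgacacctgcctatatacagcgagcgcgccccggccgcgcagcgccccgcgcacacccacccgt
Gstm7: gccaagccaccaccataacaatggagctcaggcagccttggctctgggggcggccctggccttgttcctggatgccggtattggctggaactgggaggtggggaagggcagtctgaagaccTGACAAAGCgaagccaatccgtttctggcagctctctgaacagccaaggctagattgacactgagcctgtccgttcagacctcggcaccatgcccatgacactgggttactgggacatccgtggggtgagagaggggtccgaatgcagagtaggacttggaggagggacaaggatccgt
The pair in the Rarb window lies at bases -53 to -37 from the transcription start and has 5 bases between its half-sites, and the cores of Aldh1a2 and Gstm7 lie at -112 to -104 and -129 to -121.

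The genes of the retinoid pathway that the symbol rule does not cover gave 7 listed of 21. Of these 5 were higher and 2 lower, and their median was 1.18 on the log2 scale. Among all annotated protein-coding genes 16.1% were listed, and 54.9% of all listed genes were higher. Lpl, a lipase that also aids the uptake of retinyl esters, rose by 1.43 (standard error 0.15), and Ttr, the plasma partner of Rbp4, rose by 5.34 (0.77) at a mean normalized count of only 42.0 in the authors' deposited table. The coactivator gene Ncoa3 rose by 1.18 (0.14) in the authors' deposited table. Of 18 genes known as targets of retinoic acid in other settings, 3 were listed, 2 higher and 1 lower, a share close to the 16.1% of all annotated protein-coding genes that were listed. These were Tgm2, a transglutaminase (2.64, standard error 0.16), Foxc1, a forkhead factor of meningeal and periocular mesenchyme (0.70, 0.10), and Rarres1 (-0.98, 0.39), with log2 fold changes from the authors' deposited table. Hoxb1, Meis1 and Meis2 were not listed. None of the 18 target genes is a member, so Rarb, itself induced by retinoic acid, does not enter their listed share. Foxc1 also counts among the fibroblast markers below.

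Markers of other cell types moved beside these genes, and in bulk RNA fewer cells of a type and less RNA per cell cannot be told apart. Markers of meningeal and perivascular fibroblasts, cells from which Aldh1a2 is known, gave 18 listed of 25. Of these 17 were higher and 1 lower, and their median was 1.46 on the log2 scale. The arachnoid junction gene Cldn11 rose by 2.93 (standard error 0.15) and the small proteoglycan gene Dcn by 2.87 (0.16) in the authors' deposited table. Summed over the listed markers, the implied mean was 146234 in knockout and 166186 in wild-type cultures, where Igfbp2, the one marker that fell, gave 27349 in knockout and 122219 in wild type. Col3a1, a collagen gene, gave 56076 in knockout and 31255 in wild type. Foxc2, Tbx18, Dpp4, Col1a1 and Col1a2 were not listed. Markers of Müller glia and retinal progenitors gave 8 listed of 13, all 8 of them lower, with a median of -1.37 and summed implied means of 5183 in knockout and 10004 in wild-type cultures. Pax6 was not listed. Macrophage and microglia markers were higher in 21 of 21 listed of 24, with summed implied means of 190984 in knockout and 40733 in wild type, while Cd163 and Tmem119 were not listed. Schwann cell markers were lower in 10 of 10 listed, with sums of 1044 in knockout and 5965 in wild type. Oligodendrocyte lineage markers were lower in 11 of 11 (7022 in knockout and 26815 in wild type) and neuron markers in 10 of 10 (8537 in knockout and 18911 in wild type). Beside these counts, 16.1% of all annotated protein-coding genes were listed, and 54.9% of all listed genes were higher. The part of any of these cell types in the fold changes of the members was not tested.

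Astrocyte markers gave 6 listed of 15, beside 16.1% of all annotated protein-coding genes. Of the 6 listed, 4 were higher and 2 lower, beside 54.9% higher among all listed genes. Only genes that differed between the genotypes were listed, so these counts cannot check the label of the cultures. Gfap, their intermediate filament gene, had a mean normalized count of 75119 and a log2 fold change of 0.66 (0.16), and Aqp4, their water channel, a count of 25052 and a log2 fold change of 1.15 (0.16) in the authors' deposited table. The other direction was seen for S100b, a calcium-binding protein gene, at -1.82 (0.15), and for Pax2, a factor of optic nerve astrocyte precursors, at -0.98 (0.26) in the authors' deposited table. Slc1a2, Slc1a3, Gja1 and Sox9 were not listed. Of the pigment epithelium, endothelium and mural cell lists, 5 of 12, 4 of 10 and 3 of 10 were listed, beside the same 16.1%. Of those listed 3, 2 and 0 were higher, beside the same 54.9%. Rpe65 and Lrat, which carry the visual cycle in pigment epithelium, were not listed.

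**Figure D4:**
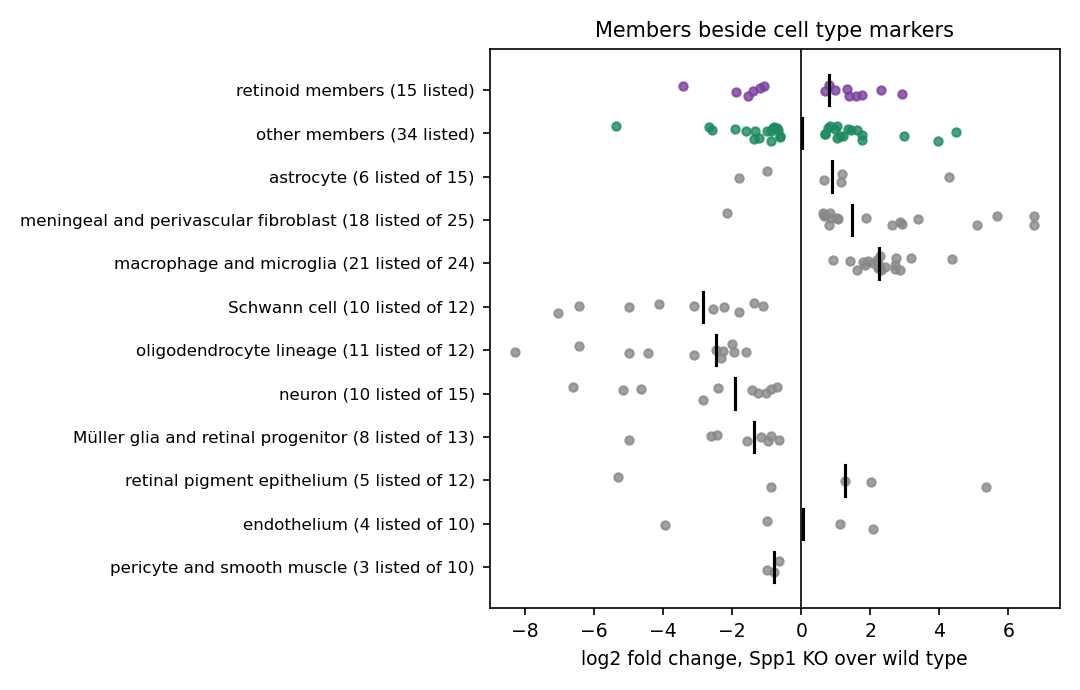
Log2 fold change of knockout over wild type (horizontal axis) for the retinoid members, the other members and the listed markers of 10 cell types (rows, with the number listed). Points are genes and black ticks are medians. Macrophage markers all lie to the right of 0 and Schwann cell, oligodendrocyte, neuron and Müller glia markers all to the left, while the members spread over both sides.

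Aldehyde and carbonyl enzymes outside the retinoid pathway were mostly lower, 5 of 6 listed, by modest amounts, beside 45.1% lower among all listed genes. None of the 6 changed by as much as 1 on the log2 scale, and the 95% interval lay beyond the limit of 0.58 for 0 of the 5 lower genes. Akr1c14, which reduces steroid ketones, stood at -0.62 (standard error 0.11, adjusted p = 2.1e-07) in the authors' deposited table, with implied means of 1697 in knockout and 2616 in wild-type cultures. Aldh1l2, a mitochondrial enzyme of the folate cycle, stood at -0.66 (0.17), and Aldh18a1, which makes the precursor of proline, stood at -0.62 (0.16) in the authors' deposited table. Cbr3, a carbonyl reductase, and Dhrs13 stood at -0.88 (0.32) and -0.87 (0.17) in the authors' deposited table. The exception was Aldh9a1, an aldehyde dehydrogenase of carnitine synthesis, which rose by 0.83 (0.11, adjusted p = 3.4e-12) in the authors' deposited table, with implied means of 1211 in knockout and 681 in wild-type cultures. Aldh18a1, Akr1c14 and Aldh1l2 had the smallest absolute fold changes among the members and so lay nearest to the limit of 0.58 at which the table ends. Beside 16.1% of all annotated protein-coding genes, 7 of 21 annotated Aldh genes were listed. Aldh1l1, often used as an astrocyte marker, was not among them.

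The cytochromes P450 were mostly higher, 7 of 8 listed, with a median log2 fold change of 1.13, beside 54.9% higher among all listed genes. Leaving out families by name stem, here Cyp2f2 and all listed Cyp4 genes with or without a close copy, gave 2 higher of 3. A mean normalized count of 100 or more gave 4 higher of 5. Cyp1b1, which oxidises oestrogens, retinoids and polycyclic hydrocarbons, rose by 1.05 (standard error 0.09, adjusted p = 1.7e-30) in the authors' deposited table, with implied means of 10569 in knockout and 5121 in wild-type cultures. Cyp4v3, a fatty acid hydroxylase whose human counterpart is mutated in a retinal dystrophy, rose by 1.22 (0.14, adjusted p = 4e-17) in the authors' deposited table, with implied means of 1683 in knockout and 723 in wild-type cultures. Cyp4f18, which hydroxylates leukotriene B4 in mouse neutrophils, rose by 2.97 (0.31, adjusted p = 1.4e-20) in the authors' deposited table. Its implied means were 212 in knockout and 27.1 in wild-type cultures, a 7.82-fold higher level (95% interval 5.16 to 11.8), beside macrophage markers that were higher in 21 of 21 listed. Cyp4f14, another fatty acid hydroxylase, rose by 0.69 (0.16) and Cyp27a1, which hydroxylates cholesterol in its side chain, by 0.98 (0.34) in the authors' deposited table. Cyp2f2, an enzyme of airway club cells, and Cyp4f15 had the largest rises of the members, by 4.48 (1.02) and 3.95 (1.58) on the log2 scale in the authors' deposited table. Both rest on few counts, with implied means of 25.2 and 10.5 in knockout and 1.13 and 0.68 in wild-type cultures. Their 95% intervals span 5.57-fold to 89.8-fold for Cyp2f2 and 1.81-fold to 133-fold for Cyp4f15.

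The exception among the cytochromes was Cyp24a1, which inactivates vitamin D. It had a log2 fold change of -2.66 (standard error 0.34, adjusted p = 6.8e-14) in the authors' deposited table, with implied means of 35.2 in knockout and 222 in wild-type cultures. The level in wild type was 6.30-fold that in the knockout (95% interval 4.0 to 9.94). Of 98 annotated genes with a Cyp stem of the rule, 8 were listed, that is 8.16%, beside 16.1% of all annotated protein-coding genes.

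The remaining enzymes of oxidation and hydrolysis split evenly, 4 higher and 4 lower, beside 54.9% higher and 45.1% lower among all listed genes. Fmo1 and Fmo2, flavin monooxygenases that lie 7.71 kb apart on the minus strand of chromosome 1, differed in direction. Fmo1 rose by 1.63 (standard error 0.25, adjusted p = 7.1e-10) in the authors' deposited table, with implied means of 292 in knockout and 94.5 in wild-type cultures. Fmo2 had a log2 fold change of -1.23 (0.41, adjusted p = 0.011) in the authors' deposited table, with implied means of 23.2 in knockout and 54.5 in wild-type cultures. Maob, the X-linked monoamine oxidase of astrocytes, rose by 1.75 (0.30, adjusted p = 1e-07) in the authors' deposited table, with implied means of 165 in knockout and 49.1 in wild-type cultures, while its relative Maoa was not listed. Nqo1, a quinone reductase and a standard target of the stress factor NRF2, had a log2 fold change of -0.98 (0.23, adjusted p = 1.1e-04) in the authors' deposited table, with implied means of 144 in knockout and 284 in wild-type cultures.

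Ephx4, an epoxide hydrolase family gene, rose by 1.77 (standard error 0.28, adjusted p = 7.7e-09) in the authors' deposited table. It lies 2.96 Mb from Spp1 on chromosome 5, where the knockout line can carry DNA of the strain in which the allele was made. Within 5 Mb of Spp1, 14 listed genes were higher and 3 lower in the knockout, beside 54.9% higher among all listed genes. The part of DNA from that strain in the value of Ephx4 was not tested. The carboxylesterase genes had low counts. Ces2b rose by 1.13 (0.44), while Ces1g and Ces2e stood at -1.60 (0.60) and -5.38 (1.44) in the authors' deposited table. Ces2e had implied means of 0.20 in knockout and 8.23 in wild-type cultures, so its fold change rests on counts near 0. Ces2b and Ces2e lie 86.2 kb apart on chromosome 8 and changed in opposite directions.

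The conjugating enzymes split by family, with 5 of 8 listed genes lower, beside 45.1% lower among all listed genes. The mu-class glutathione transferase genes Gstm7, Gstm6 and Gstm1, which sit within one cluster on chromosome 3, were all lower. Gstm7 had a log2 fold change of -1.92 (standard error 0.24, adjusted p = 1.5e-14) and Gstm6 of -1.35 (0.24, adjusted p = 3.2e-07) in the authors' deposited table. Their implied means were 80.0 and 63.2 in knockout and 303 and 161 in wild-type cultures. Gstm1 stood at -0.70 (0.19, adjusted p = 0.0014) in the authors' deposited table, with implied means of 8732 in knockout and 14181 in wild-type cultures. These genes are near-identical copies in places, so reads may have been divided between them and between the 4 annotated Gstm genes that were not listed. Gsto1, an omega-class transferase that reduces dehydroascorbate, stood at -0.80 (0.13, adjusted p = 7.3e-09) in the authors' deposited table. Sult4a1, a sulfotransferase family gene of neurons, stood at -2.60 (0.65, adjusted p = 5.2e-04) in the authors' deposited table, with implied means of 12.2 in knockout and 73.7 in wild-type cultures, beside neuron markers that were lower in 10 of 10 listed.

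The higher conjugation genes were Ugt1a7c, Ugt1a6a and Mgst1. Ugt1a7c and Ugt1a6a, glucuronosyltransferases, rose by 1.45 (standard error 0.19, adjusted p = 7.9e-13) and 1.05 (0.14, adjusted p = 7.9e-13) in the authors' deposited table. Their implied means were 527 and 553 in knockout and 193 and 267 in wild-type cultures. Genes of the Ugt1a locus overlap on chromosome 1 and share their last exons, so the pair is not independent evidence. Mgst1, a membrane-bound glutathione transferase, rose by 0.70 (0.23, adjusted p = 0.013) in the authors' deposited table, with implied means of 1360 in knockout and 838 in wild-type cultures. The direction of Mgst1 was thus opposite to that of the 4 listed soluble glutathione transferase genes.

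**Figure D5:**
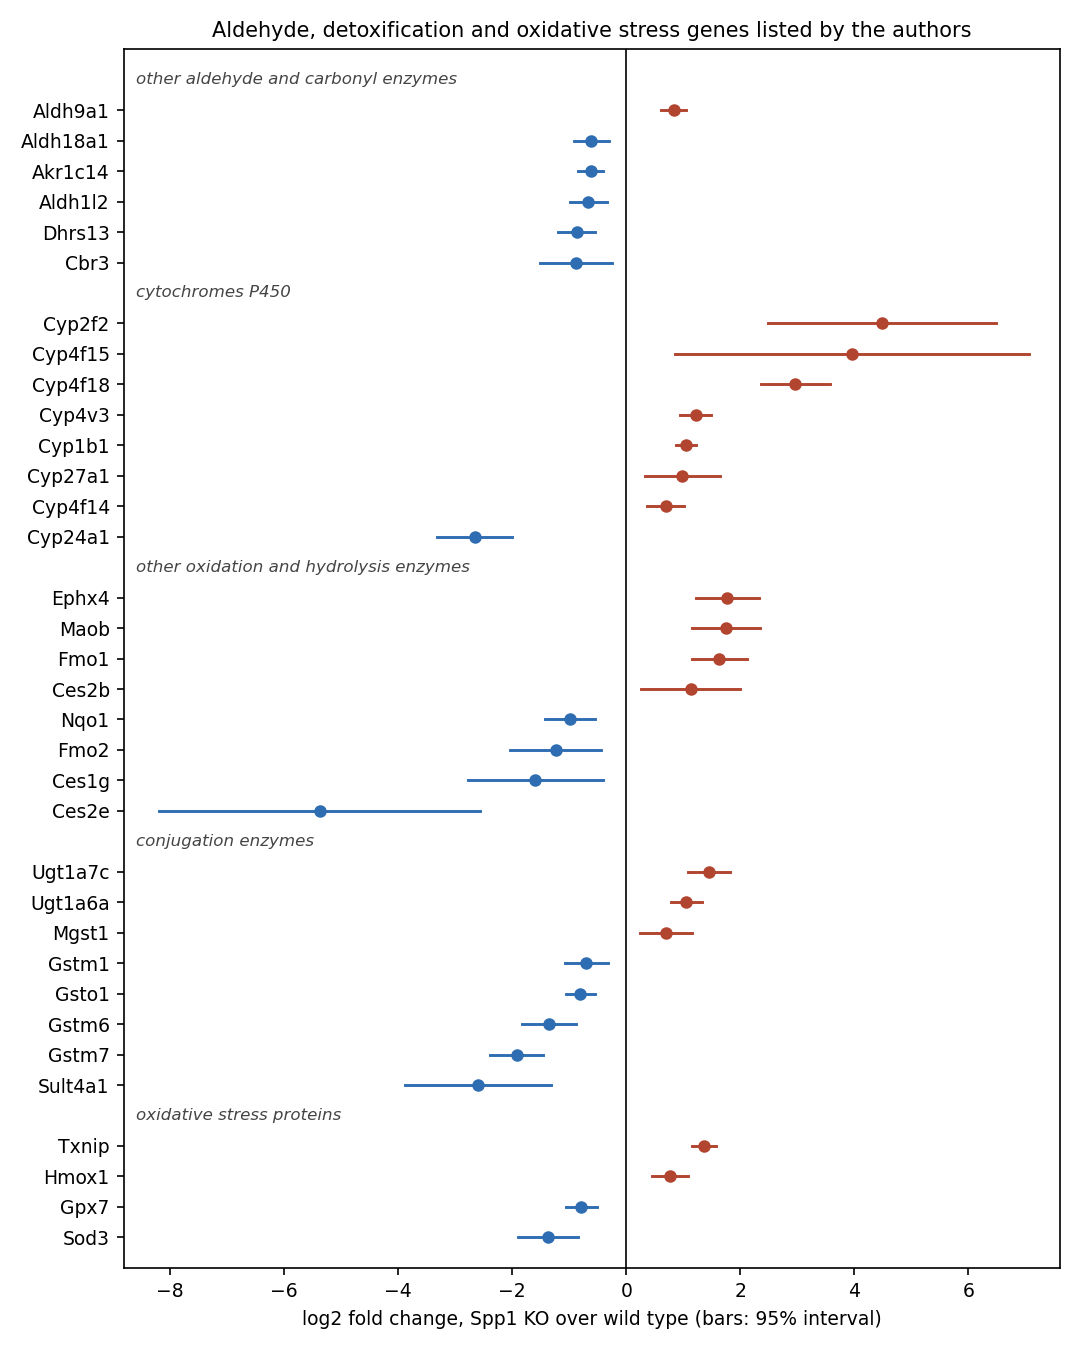
Log2 fold change of knockout over wild type (horizontal axis) for the 34 aldehyde, detoxification and oxidative stress members, grouped by role, with points for the deposited value and bars for its 95% interval. Red marks genes higher and blue genes lower in the knockout, with 7 of 8 cytochromes P450 to the right of 0 and 5 of 6 aldehyde and carbonyl enzymes to the left.

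The 4 proteins of oxidative stress also split, 2 higher and 2 lower, beside 54.9% higher and 45.1% lower among all listed genes. Hmox1, the haem-degrading enzyme and another standard NRF2 target, rose by 0.77 (standard error 0.16, adjusted p = 1.7e-05) in the authors' deposited table, with implied means of 6691 in knockout and 3916 in wild-type cultures. Txnip, which binds and inhibits thioredoxin, rose by 1.36 (0.11, adjusted p = 5.9e-34) in the authors' deposited table, with implied means of 6785 in knockout and 2648 in wild-type cultures. Sod3, the extracellular superoxide dismutase, had a log2 fold change of -1.38 (0.27, adjusted p = 3e-06) in the authors' deposited table, with implied means of 1069 in knockout and 2779 in wild-type cultures. Gpx7, a peroxidase of the endoplasmic reticulum, stood at -0.78 (0.14, adjusted p = 3.6e-07) in the authors' deposited table. Other families of peroxide defence are given beside the 16.1% of all annotated protein-coding genes that were listed. The 7 annotated Prdx genes, the 3 Txnrd genes and Cat had 0 listed members, and Gpx7 was the only one listed of 8 Gpx genes.

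The NRF2 and glutathione genes outside the symbol rule gave 10 listed of 32. Of these 8 were higher and 2 lower, and their median was 1.03 on the log2 scale. For comparison, 16.1% of all annotated protein-coding genes were listed, and 54.9% of all listed genes were higher. Slc7a11, the cystine importer that feeds glutathione synthesis, rose by 2.56 (standard error 0.22), and Fth1, the ferritin heavy chain, by 1.16 (0.13) in the authors' deposited table. Glrx, a glutaredoxin, rose by 1.13 (0.14) and Ggt5, of the gamma-glutamyl transferases, rose by 1.81 (0.30) in the authors' deposited table. Gclc, Gclm and Gss, which make glutathione, and the NRF2 target Srxn1 were not listed. Listed NRF2 targets therefore lay on both sides, with Hmox1, Slc7a11 and Fth1 higher and Nqo1 and Gstm1 lower.

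Receptors and transporters for foreign compounds gave 8 listed of 19. Of these 6 were higher and 2 lower, and their median was 0.76 on the log2 scale. Over all annotated protein-coding genes the listed share was 16.1%, and 54.9% of all listed genes were higher. Abcc3, an exporter of glucuronides, rose by 2.84 (standard error 0.17), and Abcb1a, the P-glycoprotein of brain vessels, by 1.66 (0.25) in the authors' deposited table. Slco1c1, a carrier of thyroid hormone, had a log2 fold change of -2.33 (0.14), while Slco1a4 rose by 0.78 (0.16) in the authors' deposited table. The receptor genes Ahr, Nr1i2 and Nr1i3 and the Ahr partner gene Arnt were not listed.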

How the data were processed

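Total RNA of 8 samples of cultured cells, 4 per genotype, was sequenced. CASAVA 1.8, STAR 2.7, DESeq2 1.30.1 and the build GRCm38 are named, without their roles, in the submitters' processing notes. For read assignment to genes, and its strand setting, the method was not given in the sources used here. Per the file headers, the deposited table holds a mean normalized count (a signal averaged over all samples), a log2 fold change, the standard error of that log2 value, a Wald statistic (a score without fixed range), and p-values, raw and adjusted. It was filtered on both limits before deposit: the largest adjusted p was 0.0499 and the smallest absolute log2 fold change 0.58. Dividing adjusted by raw p-values, for the 20 smallest above 0, gave an estimate of 16600 tested genes, of which 21.8% were listed.

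Genes were matched by symbol to GENCODE M21 (3583 of 3624 genes with one location), which gave positions and the exon length of protein-coding transcripts. Intervals at 95% take the deposited standard error as normal. No test was run here, because 0 columns hold per-sample values; p-values are those of the authors' Wald test. The calculation of implied means was tested on simulated data. Members, roles and gene lists were chosen with earlier results of these data known. Every member may be named except 1, which is counted but not reported here, and from the other lists up to 4 genes with the smallest adjusted p. Igfbp2, Col3a1, Gfap, Pax2, Foxc1, Rarres1 and the unlisted genes were named after values were seen. Alternatives changed the fold-change, adjusted p and count limits and left out families or chromosome 5. Python 3.11.15, pandas 2.3.3 and matplotlib 3.10.9 were used.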

Additional observations from a re-analysis of the deposited data

How the results depend on the processing

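Of 28 recomputed values for the members as a whole, 21 stayed within 1.5 times the count or within 0.24 (the members' median standard error) of the median given above. Among members that changed by 1 or more on the log2 scale, 14 members were lower beside 18 higher, the median log2 fold change was 1.09 (1.23 over all listed genes) and the median absolute value 1.60 (1.76). Where the 95% interval lay beyond 0.58, 11 were lower beside 18 higher, with medians of 1.05 and 1.63, against 1.25 and 1.84 over all listed genes. At a mean count of 100 or more, the median absolute value was 1.05, against 0.94 over all listed genes. These limits select on the fold change or its precision. Leaving out, by name stem, families that hold near-identical copies kept 34 members, 18 higher and 16 lower. Without thioredoxin domain genes 48 members were left, 25 higher and 23 lower. Without chromosome 5 there were 47 left, 25 higher and 22 lower. The last 2 settings removed so few members that their values could hardly move. No paired analysis was possible because the table holds no values per sample, and leaving out single replicates was not run for the same reason. Counts by role fell by over 1.5 times in 27 of 112 recomputed values.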
